A study of Rattus norvegicus with 18 samples.

Results

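Integrins are the cell surface receptors through which cells hold on to extracellular matrix. The 10 integrin subunit genes described here are Itga2, Itga3, Itga5, Itga6, Itgav, Itgb1, Itgb4, Itgb5, Itgb6 and Itgb8. They were chosen by gene symbol from the 28695 rows of the count files, where each symbol was found, and all 10 were among the 11503 genes with enough counts to be tested. Other integrin genes are given by their counts near the end.

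The cells are rat pXEN cells, labelled rat XENP, which are extraembryonic endoderm precursors from female blastocysts of the WKY strain, and 18 libraries were made from them in 6 groups of 3. Normal cells had routine culture. CHIR99021, a GSK3 inhibitor, was added at 0.5 µM for 2 groups of vacuolated cells, of which 1 was sorted. The remaining vacuolated group had 14% BCS, an addition that the labels leave as an abbreviation, in place of CHIR99021. Serum vesicles and serum-free vesicles were both labelled with CHIR99021. The protocol lists 3 µM CHIR99021 and murine LIF at 10 ng/ml in N2B27 medium for vesicles, without feeder cells, PD0325901 or Y-27632. It does not say whether this recipe also covers the vesicles with serum, so their dose is uncertain and serum cannot be told apart from any other difference between the vesicle media. Passage numbers ran from 32 to 51. The samples are described as independently prepared, without saying whether they trace to 1 derivation, so each p below measures the spread between these samples.

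Each integrin is a pair of 1 alpha and 1 beta chain. Beta 1 pairs with many alpha chains, including alpha 2 (a collagen receptor), alpha 3 and alpha 6 (laminin receptors) and alpha 5 (the classical fibronectin receptor). Alpha 6 also pairs with beta 4, whose long tail anchors hemidesmosomes to keratin filaments. Alpha v takes beta 1, beta 5, beta 6 or beta 8 and reads the RGD motif of vitronectin, fibronectin or the latent form of TGF-beta. Extraembryonic endoderm lays down the basement membranes of the yolk sac, and in the early embryo laminin and beta 1 integrin are needed for endoderm to line the blastocyst cavity.

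Libraries held 4050722 to 12074939 counts, of which the 2 most abundant genes took 37.6 to 61.1%. Levels below are CPM, a gene's counts relative to a library size scaled by TMM, a trimmed mean of ratios between libraries. The files give no transcript lengths, so a level is compared only between groups and never between subunits. Markers of extraembryonic endoderm were present throughout, with none of the 8 at 0 in any group. Their sum lay at 1350 to 1580 CPM in normal cells but at 750 to 891 with serum and 995 to 1160 without in the vesicles. The members went both ways. By the test given below, 2 rose and 4 fell in serum vesicles, where 60.4% of all genes passed. In serum-free vesicles 3 rose and 3 fell, beside 57.7%. Cited1 had 1.51 to 2.51 CPM in normal cells, 33 to 44.1 with serum and 21.7 to 30.5 without. Gata6 had 75.6 to 82.7, 10.8 to 17.4 and 13.2 to 18.9 CPM. The 3 precursor markers summed to 532 to 597 CPM in normal cells and to at most 111 CPM in any vesicle library. In CHIR99021-vacuolated, BCS-vacuolated and sorted cells they summed to 278 to 325, 423 to 457 and 321 to 418 CPM. The 7 parietal endoderm markers summed to 3480 to 4070 CPM in normal cells and 2000 to 2730 in vesicles. By the same test 1 rose and 4 fell in serum vesicles, and 1 rose and 3 fell in serum-free vesicles. Plat had 2.87 to 3.78 CPM in normal cells, 35.9 to 61.5 with serum and 10.5 to 54 without. The sums of these 7 were higher in BCS-vacuolated (5000 to 6630 CPM) and sorted cells (4790 to 6270 CPM), with 3770 to 4600 CPM in CHIR99021-vacuolated cells. Of the 7, 5 rose and 1 fell with BCS (20.7% of all genes passed), and 4 rose and 2 fell after sorting (25.9%). The 6 visceral endoderm markers summed to 327 to 454 CPM in normal cells and 47.9 to 183 in vesicles. Of these, Afp and Apoa1 were at 0 in normal cells. Serum-free vesicle libraries differed widely in both, with a range of 0.233 to 30.6 CPM for Afp and 0 to 42.0 CPM for Apoa1. For Hnf4a, normal libraries held 7.87 to 9.21 CPM. Each vesicle library was above them, at 34.1 to 44.9 CPM with serum and 51.9 to 75.9 CPM without. Amn and Cubn were lower in each vesicle library than in any normal one. The 6 trophoblast markers summed to 7.87 to 10.0 CPM in normal cells and 19.4 to 33.8 CPM over the vesicle libraries, and their 2 tested members went opposite ways. Cdx2, a trophoblast and gut regulator, had 0 counts in normal cells, 457 in serum vesicles and 479 in serum-free vesicles, while Eomes, a trophoblast and endoderm regulator, had 142, 14 and 21. Elf5, Hand1 and Tfap2c of that list were at 0 in serum vesicles. In serum-free vesicles Elf5 had 31 counts, beside 3 in normal cells, Tfap2c had 4, beside 13, and Hand1 had 0. Krt7 had 0 counts in normal cells, 13 in serum vesicles and 5 in serum-free vesicles. Fibroblast markers summed to at most 15.9 CPM in any library, with Dcn at 0 in every group, and blood and endothelial markers to at most 6.07 CPM. Mitochondrially encoded genes took 3.13 to 3.38% of the counts outside these 2 genes in normal cells, 6.76 to 8.91% in sorted cells and 7.11 to 9.43% in vesicles. The part of these shifts in the results below was not tested. Fewer cells of a type and less RNA per cell cannot be told apart in such bulk libraries.

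Between 2 and 8 of the 10 subunits passed the test in each of 9 comparisons. Every adjusted p given is from edgeR's quasi-likelihood test with Benjamini-Hochberg adjustment over all 11503 genes, and a subunit rose or fell where it was under 0.05. Against normal cells, 2 subunits passed in CHIR99021-vacuolated cells, 1 higher and 1 lower, where 7.62% of all genes passed (4.49% higher and 3.13% lower). In BCS-vacuolated cells 4 rose and 0 fell, beside 20.7% of all genes (11.2% higher and 9.51% lower). In sorted CHIR99021-vacuolated cells 4 rose and 0 fell, beside 25.9% (14.4% higher and 11.5% lower). In serum vesicles 6 rose and 2 fell, beside 60.4% (31.7% higher and 28.8% lower). In serum-free vesicles 5 rose and 3 fell, beside 57.7% (30.2% higher and 27.5% lower). The share of subunits called in the vesicles was thus 80%, in a setting where more than every other gene also passed, and it is read as no more than that. One subunit, Itgb8, exceeded the low-count filter in vesicle libraries alone. Among the other 9, the counts were 5 higher and 2 lower in serum vesicles and 4 higher and 3 lower in serum-free vesicles. The median log2 fold change of the 10 subunits was 0.27 in CHIR99021-vacuolated, 0.71 in BCS-vacuolated and 0.53 in sorted cells, 0.59 in serum vesicles and 0.45 in serum-free vesicles. Itgb8 is part of these medians. Among the other 9, the middle value was 0.48 in serum vesicles (Itgb1) and 0.06 in serum-free vesicles (Itgb5). The median of all tested genes was at most 0.01 in the vacuolated groups, 0.06 in serum vesicles and 0.03 in serum-free vesicles. These 5 comparisons share the normal libraries.

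**Figure D1:**
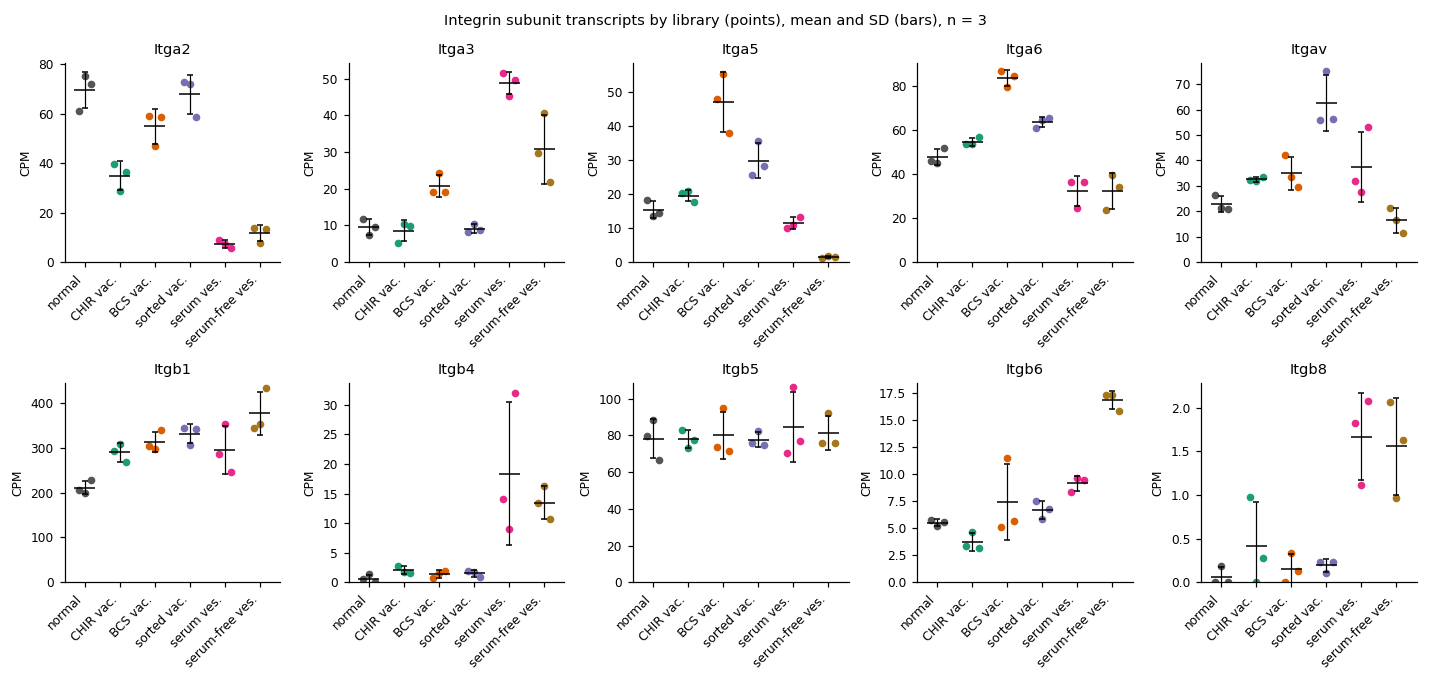
Level of each of the 10 integrin subunits in CPM (vertical axes, each starting at 0) in the 6 groups. Points are the 3 libraries of a group, and horizontal and vertical bars are the mean and SD, cut at 0 where they would cross it. Itga2 lies between 5.53 and 13.9 CPM in the 6 vesicle libraries and at 28.6 CPM or above in the 12 libraries of cells, while the group means of Itgb5 stay between 77.8 and 84.7 CPM.

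Itga2, the alpha chain of the collagen receptor alpha 2 beta 1, was high in cells and low in vesicles. Its 3 libraries had 61.2, 75.2 and 72.0 CPM in normal cells, 39.8, 28.6 and 36.5 in CHIR99021-vacuolated cells, 59.2, 46.8 and 58.8 in BCS-vacuolated cells and 72.7, 72.1 and 58.6 in sorted cells. Serum vesicles had 8.82, 7.38 and 5.53 CPM and serum-free vesicles 13.9, 7.89 and 13.5. No vesicle library reached the lowest library of cells. Itga2 fell 9.41-fold in serum vesicles (log2 fold change -3.23 ± 0.21 SE, adjusted p = 2.84e-12) and 5.95-fold in serum-free vesicles (log2 fold change -2.57 ± 0.19 SE, adjusted p = 4.31e-11). It was also the only subunit of the 10 to fall in CHIR99021-vacuolated cells, by 1.98-fold (log2 fold change -0.99 ± 0.18 SE, adjusted p = 0.000636). In sorted cells, given the same CHIR99021 dose, it did not pass against normal cells (log2 fold change -0.04, 95% interval -0.39 to 0.31), and it was 1.93-fold higher than in unsorted CHIR99021-vacuolated cells (log2 fold change 0.95 ± 0.17 SE, adjusted p = 0.00071).

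Itga3, an alpha chain that pairs with beta 1 to bind laminins, was lowest in normal and CHIR99021-treated cells and highest in vesicles. Its libraries had 11.7, 7.48 and 9.54 CPM in normal cells, 5.33, 10.3 and 9.98 in CHIR99021-vacuolated cells and 8.18, 10.5 and 8.76 in sorted cells. BCS-vacuolated cells had 19.0, 24.2 and 19.0 CPM, serum vesicles 51.4, 45.4 and 49.6 and serum-free vesicles 29.8, 40.7 and 21.9. Normal, CHIR99021-vacuolated and sorted cells overlapped at the bottom of this order, and each library of the remaining groups was above all of theirs. Itga3 rose 5.08-fold in serum vesicles (log2 fold change 2.35 ± 0.23 SE, adjusted p = 5.94e-09), 3.21-fold in serum-free vesicles (log2 fold change 1.68 ± 0.23 SE, adjusted p = 1.33e-06) and 2.17-fold in BCS-vacuolated cells (log2 fold change 1.12 ± 0.24 SE, adjusted p = 0.00154). CHIR99021-vacuolated cells gave -0.17 with a 95% interval of -0.70 to 0.35.

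Itga6, the other laminin-binding alpha chain of the 10, had its highest level in BCS-vacuolated cells and its lowest in vesicles. Its libraries had 46.1, 45.3 and 51.9 CPM in normal, 53.6, 53.8 and 56.9 in CHIR99021-vacuolated, 86.8, 79.6 and 84.6 in BCS-vacuolated and 61.1, 64.5 and 65.4 in sorted cells. Serum vesicles had 36.4, 24.5 and 36.4 CPM and serum-free vesicles 23.5, 39.5 and 34.1, with means of 32.4 ± 6.87 and 32.4 ± 8.10 (SD, n = 3). The vesicle groups overlapped with each other, and no other neighbours in this order did. Itga6 rose in BCS-vacuolated cells (log2 fold change 0.81 ± 0.15 SE, adjusted p = 0.000647) and fell in serum vesicles (log2 fold change -0.57 ± 0.16 SE, adjusted p = 0.00378) and serum-free vesicles (log2 fold change -0.55 ± 0.16 SE, adjusted p = 0.00457). In sorted cells it passed narrowly (log2 fold change 0.41 ± 0.15 SE, adjusted p = 0.0495), and this call did not hold when any 1 of the 6 libraries was left out (adjusted p 0.136, 0.157 and 0.064 without normal replicates 1, 2 and 3, and 0.0713, 0.115 and 0.119 without sorted replicates 1, 2 and 3). It was also lost under DESeq2 size factors and upper-quartile scaling.

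The ratio of Itga3 to Itga6 was higher in each vesicle library than in any library of cells. The count ratio of Itga3 to Itga6 within a library was 0.201 ± 0.0462 (SD, n = 3) in normal cells, 0.156 ± 0.0495 in CHIR99021-vacuolated, 0.249 ± 0.0477 in BCS-vacuolated and 0.144 ± 0.0167 in sorted cells. It was 1.54 ± 0.270 in serum vesicles and 0.979 ± 0.314 in serum-free vesicles. The lowest vesicle library had 0.642 and the highest library of cells 0.304. These ratios carry the lengths of both transcripts, so only their change between groups is meaningful. The ratios here and below are descriptions and were not tested.

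**Figure D2:**
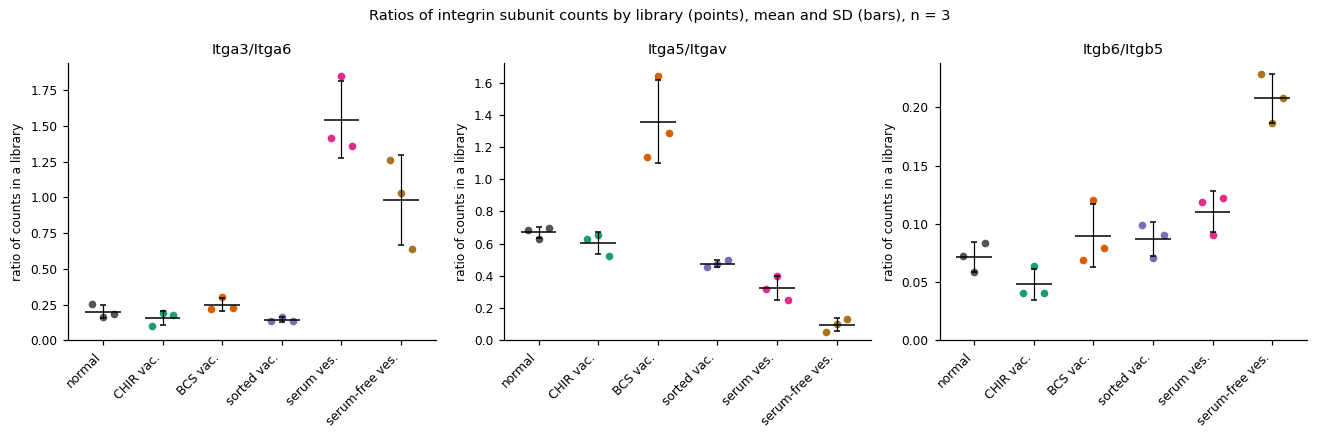
Ratio of the counts of 2 integrin subunits within a library (vertical axes, starting at 0) in the 6 groups, for Itga3 to Itga6, Itga5 to Itgav and Itgb6 to Itgb5. Points are libraries and bars are mean and SD of 3. The ratio of Itga3 to Itga6 is at or above 0.642 in every vesicle library, that of Itga5 to Itgav is highest in BCS-vacuolated cells, and that of Itgb6 to Itgb5 is highest in serum-free vesicles.

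Itgb4, the partner of alpha 6 in hemidesmosomes, was near the limit of detection in cells and clearly present in vesicles. Normal libraries held 3, 7 and 0 counts, CHIR99021-vacuolated libraries 20, 10 and 11, BCS-vacuolated libraries 4, 14 and 15 and sorted libraries 17, 16 and 11. Serum vesicles held 92, 65 and 139 counts (14.0, 9.05 and 32.0 CPM) and serum-free vesicles 71, 134 and 92 counts (13.4, 16.3 and 10.7 CPM). Each vesicle library was above each library of cells, and serum vesicle replicate 3 was the highest of all. Itgb4 rose about 30.0-fold in serum vesicles (log2 fold change 4.91 ± 0.62 SE, adjusted p = 9.65e-07) and 22.4-fold in serum-free vesicles (log2 fold change 4.49 ± 0.62 SE, adjusted p = 3.9e-06). These sizes are loose because normal cells held 10 counts in all. Without normal replicate 2 the log2 fold changes were 6.06 and 5.67, without normal replicate 3 they were 4.24 and 3.83, and without serum vesicle replicate 3 the serum value was 4.26, with adjusted p values of at most 2.18e-05. Among the vacuolated groups the gene did not pass (log2 fold change 1.76, adjusted p = 0.183 in CHIR99021-vacuolated cells, where it did without the low-count filter, adjusted p = 0.0142).

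The strand of the reads mattered for Itgb4 more than for the other subunits. Over all libraries it had 721 counts on its own strand and 23307 on the opposite one, or 97.0% opposite, where the other 9 subunits had 0.174 to 2.28%. The opposite-strand counts stood at 0.394 to 0.519 per count of Galk1, the galactokinase gene, in all 18 libraries. Galk1 is the neighbour of Itgb4 in the RefSeq gene table for rat (GRCr8). Counts on the own strand were 0 to 0.526% of the opposite ones in normal cells, 0.384 to 1.28% in vacuolated cells and 7.99 to 46.3% in vesicles. With the deposited unstranded counts in place of the strand-specific ones, the log2 fold change of Itgb4 was 1.50, adjusted p = 1.08e-05 in serum vesicles and 1.29, adjusted p = 7.43e-05 in serum-free vesicles, so the call was kept with a much smaller size. Opposite-strand counts that belong to a neighbouring transcript were not separated further.

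**Figure D3:**
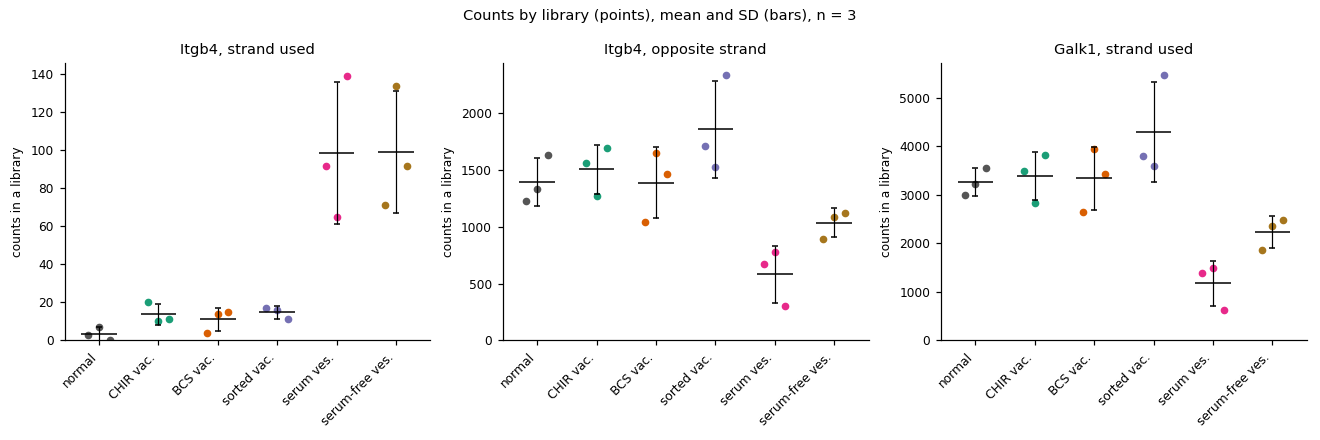
Counts per library (vertical axes, starting at 0) of Itgb4 on its own strand, of Itgb4 on the opposite strand and of Galk1 on its own strand, in the 6 groups. Points are libraries and bars are mean and SD of 3. The own-strand counts of Itgb4 are at most 20 in cells and at least 65 in vesicles, whereas its opposite-strand counts follow those of Galk1, and the means of both are lower in the vesicles.

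Itga5, the alpha chain of the fibronectin receptor, had the widest range of the well-counted subunits across the cultures. Its libraries had 18.1, 13.4 and 14.5 CPM in normal, 20.2, 20.9 and 17.6 in CHIR99021-vacuolated, 48.0, 55.2 and 37.8 in BCS-vacuolated and 25.6, 35.5 and 28.2 in sorted cells. Serum vesicles had 10.0, 11.0 and 13.4 CPM and serum-free vesicles 1.13, 1.70 and 1.51, the latter from 6, 14 and 13 counts. Only the normal and CHIR99021-vacuolated groups overlapped among neighbours in this order, and the mean of the highest group was 32.5 times that of the lowest. Itga5 rose 3.06-fold in BCS-vacuolated cells (log2 fold change 1.61 ± 0.18 SE, adjusted p = 7e-07) and 1.94-fold in sorted cells (log2 fold change 0.95 ± 0.18 SE, adjusted p = 0.000394). It fell 10.2-fold in serum-free vesicles (log2 fold change -3.36 ± 0.25 SE, adjusted p = 4.55e-11). In serum vesicles the highest library was just under the lowest normal one, and the gene did not pass (log2 fold change -0.43 ± 0.20 SE, adjusted p = 0.0585), although it passed without normal replicate 2 (adjusted p = 0.0357), without serum vesicle replicate 3 (adjusted p = 0.0338) and with unstranded counts (adjusted p = 0.0447).

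Itgav, the alpha chain shared by the RGD-binding receptors, was highest in sorted cells. Normal libraries had 26.4, 21.3 and 20.9 CPM, CHIR99021-vacuolated libraries 32.2, 31.9 and 33.6, BCS-vacuolated libraries 42.1, 33.6 and 29.4 and sorted libraries 56.0, 75.1 and 56.4. Serum vesicles had 31.8, 27.4 and 53.3 CPM and serum-free vesicles 21.5, 16.4 and 11.5. Each sorted library was above each library of the other groups, and all libraries of the 3 vacuolated groups were above those of normal cells. Itgav rose 2.73-fold in sorted cells (log2 fold change 1.45 ± 0.22 SE, adjusted p = 4.87e-05). It did not pass in CHIR99021-vacuolated (log2 fold change 0.51 ± 0.22 SE, adjusted p = 0.188) or BCS-vacuolated cells (log2 fold change 0.61 ± 0.22 SE, adjusted p = 0.055). Fitted on the 2 groups alone both passed (adjusted p = 0.00636 and 0.0109). The BCS difference also passed with DESeq2 (0.0419), without the low-count filter (0.00686), with unstranded counts (0.046) and without the 2 most abundant genes (0.0473). It rose in serum vesicles (log2 fold change 0.70 ± 0.23 SE, adjusted p = 0.0108), but without serum vesicle replicate 3, the shallowest library, the value was 0.37, adjusted p = 0.134. In serum-free vesicles it did not pass (log2 fold change -0.49 ± 0.23 SE, adjusted p = 0.0753), and it did without serum-free vesicle replicate 1 (log2 fold change -0.71, adjusted p = 0.0167) and without the low-count filter (adjusted p = 0.0274).

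The ratio of Itga5 to Itgav counts within a library was 0.671 ± 0.0353 in normal cells, 0.602 ± 0.0682 in CHIR99021-vacuolated cells, 0.477 ± 0.0222 in sorted cells and 1.36 ± 0.258 in BCS-vacuolated cells (SD, n = 3). Vesicles had 0.323 ± 0.0752 with serum and 0.0959 ± 0.0399 without. Both genes were higher in sorted than in unsorted CHIR99021-vacuolated cells, by 1.52-fold for Itga5 (log2 fold change 0.61 ± 0.18 SE, adjusted p = 0.0243) and 1.92-fold for Itgav (log2 fold change 0.94 ± 0.21 SE, adjusted p = 0.00553). The Itga5 difference lost its call without unsorted replicate 1, 2 or 3 (adjusted p 0.0678, 0.0571 and 0.106) and without sorted replicate 2 (adjusted p 0.163).

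Itgb1, the beta chain that most of these alpha chains need, rose in all 5 treated groups, by a small factor in each. Normal libraries had 207, 199 and 228 CPM, CHIR99021-vacuolated libraries 292, 309 and 268, BCS-vacuolated libraries 303, 298 and 339.5 and sorted libraries 344, 307 and 343. Serum vesicles had 286, 352 and 246 CPM and serum-free vesicles 345, 354 and 432. The highest normal library, at 228 CPM, was below the lowest of the 15 other libraries, at 246 CPM. The fold was 1.37 in CHIR99021-vacuolated cells (log2 fold change 0.45 ± 0.13 SE, adjusted p = 0.0271), 1.48 in BCS-vacuolated cells (log2 fold change 0.57 ± 0.13 SE, adjusted p = 0.00266) and 1.57 in sorted cells (log2 fold change 0.65 ± 0.13 SE, adjusted p = 0.000628). It was 1.40 in serum vesicles (log2 fold change 0.48 ± 0.13 SE, adjusted p = 0.00236) and 1.78 in serum-free vesicles (log2 fold change 0.84 ± 0.13 SE, adjusted p = 5.53e-06). The call in CHIR99021-vacuolated cells was lost without normal replicate 1 (adjusted p = 0.0974) or 2 (0.134) and without CHIR99021-vacuolated replicate 1 (0.0946) or 2 (0.116). Since all 5 comparisons use the same 3 normal libraries, their shared direction is not 5 separate observations.

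Itgb5, a partner of alpha v in the vitronectin receptor, was the steadiest of the 10. Group means ran from 77.8 ± 4.25 CPM in sorted cells to 84.7 ± 19.2 in serum vesicles (SD, n = 3), a ratio of 1.09, and every group overlapped its neighbours in level. The gene passed in none of the 9 comparisons by edgeR, and its unadjusted p values against normal cells were 0.444 and above. The 95% interval of the log2 difference from normal was -0.31 to 0.30 in CHIR99021-vacuolated cells, -0.27 to 0.34 in BCS-vacuolated cells and -0.32 to 0.30 in sorted cells. The vesicles gave -0.19 to 0.43 with serum and -0.25 to 0.37 without it. With unstranded counts its level was 60.3% of the strand-specific one over all libraries, and no call was gained.

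Itgb6, an epithelial partner of alpha v that activates latent TGF-beta, rose in both kinds of vesicles. Normal libraries had 5.74, 5.18 and 5.60 CPM, CHIR99021-vacuolated libraries 3.36, 4.66 and 3.14, BCS-vacuolated libraries 5.09, 11.5 and 5.70 and sorted libraries 7.49, 5.81 and 6.79. Serum vesicles had 8.37, 9.60 and 9.45 CPM and serum-free vesicles 17.3, 17.2 and 15.8, with the serum-free libraries above all others. Itgb6 rose 3.04-fold in serum-free vesicles (log2 fold change 1.60 ± 0.26 SE, adjusted p = 9.74e-06) and 1.65-fold in serum vesicles (log2 fold change 0.73 ± 0.27 SE, adjusted p = 0.0226). The serum call was lost without normal replicate 2 (adjusted p = 0.0724) or 3 (0.0542) and without serum vesicle replicate 2 (0.0566). Set against Itgb5 in the same library, the count ratio was 0.0715 ± 0.0126 in normal cells, 0.111 ± 0.0177 in serum vesicles and 0.208 ± 0.0207 in serum-free vesicles (SD, n = 3).

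Itgb8, the remaining partner of alpha v and likewise an activator of latent TGF-beta, had few counts everywhere. Serum vesicles held 12, 8 and 9 counts and serum-free vesicles 11, 8 and 14. The 12 libraries of cells held at most 7 each, and normal cells held 1 in all. By counts over the group, serum vesicles had 27.9 times the normal level with a 95% counting interval of 4.62 to 1138, and serum-free vesicles 25.9 times with 4.34 to 1055. Itgb8 entered the test through 4 vesicle libraries over the count filter and 0 libraries of cells, so a gene admitted this way had to be higher in vesicles and its fitted p (0.000933 and 0.00121, adjusted, by edgeR) is no support for the difference. The fitted log2 fold changes of 4.46 and 4.36 became 6.59 and 6.51 without normal replicate 2, which held the only normal count, so their size is not fixed. The 9 counts of CHIR99021-vacuolated cells, 7 of them in replicate 1, gave a ratio of 7.73 to normal cells with an interval of 1.07 to 339 and did not pass (adjusted p = 0.258).

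**Figure D4:**
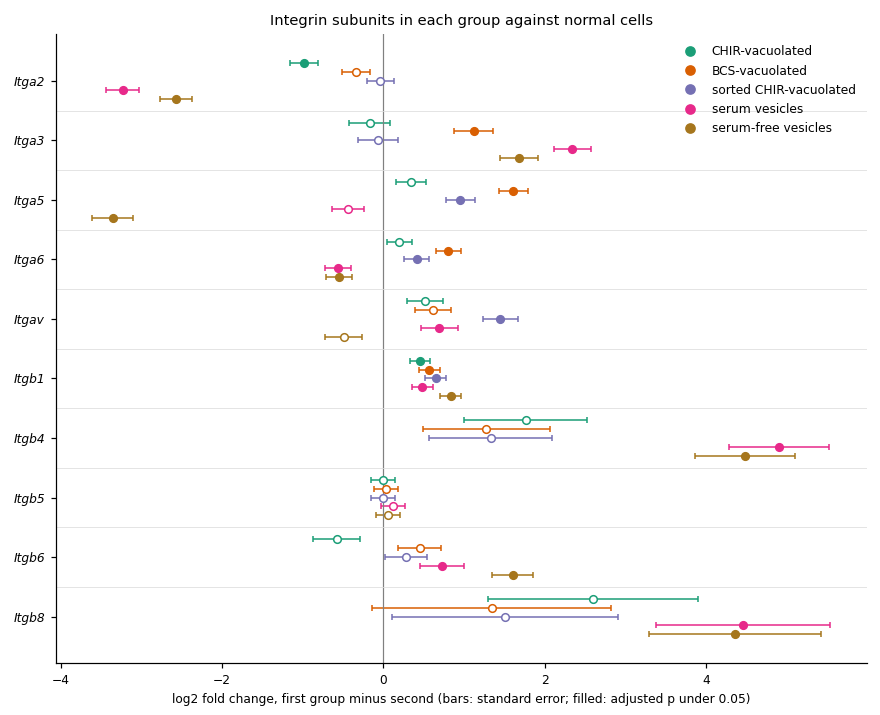
Log2 fold change against normal cells (horizontal axis) of each integrin subunit (vertical axis) in the 5 treated groups. Points are fitted values, bars are standard errors and filled points have an adjusted p under 0.05. Itga2 falls and Itga3, Itgb4 and Itgb6 rise in both kinds of vesicles, Itgb8 is also plotted as higher but was admitted to the test by vesicle libraries alone, Itga5 reaches -3.36 in serum-free vesicles alone, and Itgb5 stays beside 0.

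RefSeq gives a promoter window (GRCr8) for 8 of the 10 subunits, all but Itga6 and Itgb4. The windows shown are those of Itga2, which fell in both kinds of vesicles, and of Itga3 and Itgb6, which rose in both. Each is the 250 bases before the annotated start, on the minus strand, read 5′ to 3′, at chr2:48354510-48354759, chr10:80518902-80519151 and chr3:65530334-65530583. Capitals mark matches on either strand to CACCTG (an E-box) or GGGCGG (a GC box).
Itga2: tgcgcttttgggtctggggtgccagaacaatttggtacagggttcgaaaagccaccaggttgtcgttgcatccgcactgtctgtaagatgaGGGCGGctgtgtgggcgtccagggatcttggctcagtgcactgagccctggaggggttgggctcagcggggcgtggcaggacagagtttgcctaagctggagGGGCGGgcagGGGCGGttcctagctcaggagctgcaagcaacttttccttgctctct
Itga3: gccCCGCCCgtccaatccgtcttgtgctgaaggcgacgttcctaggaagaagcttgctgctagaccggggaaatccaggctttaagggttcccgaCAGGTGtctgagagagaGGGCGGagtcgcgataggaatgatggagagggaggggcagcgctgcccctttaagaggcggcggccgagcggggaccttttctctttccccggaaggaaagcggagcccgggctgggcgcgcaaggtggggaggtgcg
Itgb6: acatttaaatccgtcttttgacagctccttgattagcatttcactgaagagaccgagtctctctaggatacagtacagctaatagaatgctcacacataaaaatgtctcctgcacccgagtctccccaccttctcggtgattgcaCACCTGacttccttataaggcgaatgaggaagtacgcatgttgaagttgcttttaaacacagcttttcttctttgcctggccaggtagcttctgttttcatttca
The window of Itga2 holds 3 GC boxes and no E-box of this spelling, that of Itga3 holds 2 GC boxes and 1 E-box, and that of Itgb6 holds 1 E-box and no GC box. Among all 33465 rat promoters, 15.9% of windows hold this E-box and 30.5% this GC box. None of the 8 subunit windows holds TGANTCA, an AP-1 site, on either strand, which 6.34% of promoters do. The same was true of TCAAAG, a TCF/LEF core found in 13.9% of promoters. A search for AGATAA, a site of the GATA factors that 10.3% of promoters hold, likewise gave no match in the 8. GC content was 60.0% for Itga2, 64.0% for Itga3 and 43.2% for Itgb6, beside a median of 51.2% over all promoters. The E-box and the GC box share no letters in these windows. A match is a description of the letters and shows no binding.

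Serum-free and serum vesicles differed in 6 of the 10 subunits, 3 higher and 3 lower without serum, where 24.4% of all genes passed (12.9% higher and 11.5% lower). Itga5 differed most, 7.58-fold lower without serum (log2 fold change -2.92 ± 0.26 SE, adjusted p = 9.73e-08). Itgav was 2.28-fold lower (log2 fold change -1.19 ± 0.23 SE, adjusted p = 0.000742) and Itgb6 1.84-fold higher (log2 fold change 0.88 ± 0.24 SE, adjusted p = 0.011). These 3 calls held under each alternative tried, including leaving out any 1 library. Itga3 was 1.58-fold lower (log2 fold change -0.66 ± 0.21 SE, adjusted p = 0.023), Itga2 1.58-fold higher (log2 fold change 0.66 ± 0.22 SE, adjusted p = 0.0321) and Itgb1 1.28-fold higher (log2 fold change 0.35 ± 0.13 SE, adjusted p = 0.0447). Libraries of the 2 groups overlapped for Itga2 and Itgb1. Fitted on the 2 groups alone, 3 subunits passed, and Itga2, Itga3 and Itgb1 did not. Without serum-free replicate 3, Itga2 gave 0.53, adjusted p = 0.146, Itga3 -0.46, adjusted p = 0.141 and Itgb1 0.25, adjusted p = 0.221. Without serum vesicle replicate 3 they gave 0.53, adjusted p = 0.136 for Itga2, -0.65, adjusted p = 0.0604 for Itga3 and 0.24, adjusted p = 0.214 for Itgb1. Itga2 was also lost without serum vesicle replicate 2 (adjusted p = 0.0617) or serum-free replicate 1 (0.0955), Itga3 without serum vesicle replicate 1 (0.0699) or serum-free replicate 1 (0.0504), and Itgb1 without serum vesicle replicate 1 (0.109) or serum-free replicate 2 (0.0547). With all libraries, the Itgb1 call was lost under upper-quartile scaling (adjusted p = 0.0663), passage as a covariate (0.0513) and a replicate block (0.0617) as well. Itga6 differed by 0.02 with an interval of -0.32 to 0.35, and Itgb4 by -0.42 with -1.28 to 0.44.

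CHIR99021- and BCS-vacuolated cells, both unsorted, differed in 5 subunits, all lower with CHIR99021, beside 13.2% of all genes (5.83% higher and 7.4% lower). Itga3 was 2.45-fold lower (log2 fold change -1.29 ± 0.24 SE, adjusted p = 0.000637), Itga5 2.41-fold (log2 fold change -1.27 ± 0.18 SE, adjusted p = 2.75e-05) and Itga6 1.53-fold (log2 fold change -0.61 ± 0.15 SE, adjusted p = 0.00888). Itga2 was 1.56-fold lower (log2 fold change -0.64 ± 0.18 SE, adjusted p = 0.015) and Itgb6 2.04-fold lower (log2 fold change -1.03 ± 0.28 SE, adjusted p = 0.0134). The Itga2 call was lost without CHIR99021-vacuolated replicate 2 (adjusted p = 0.108) or BCS-vacuolated replicate 1 (0.0886) or 3 (0.0643). The Itgb6 call was lost without CHIR99021-vacuolated replicate 1 (0.067) or 3 (0.0675), and without BCS-vacuolated replicate 2 its value was -0.55, adjusted p = 0.162. Itgav and Itgb1 did not pass between these groups, with intervals of -0.55 to 0.35 and -0.38 to 0.15.

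Sorted cells had 4 subunits higher and 0 lower than unsorted CHIR99021-vacuolated cells, beside 11.7% of all genes (6.69% higher and 5.05% lower). These were Itga2, Itga5 and Itgav, given above, and Itgb6 (log2 fold change 0.86 ± 0.27 SE, adjusted p = 0.0409). The Itgb6 call did not hold when any 1 library was left out, with an adjusted p between 0.0506, without unsorted replicate 2, and 0.156, without unsorted replicate 3 (0.142 without unsorted replicate 1 and 0.117, 0.0629 and 0.0959 without sorted replicates 1, 2 and 3). The count of called subunits was 2 without any 1 unsorted library or without sorted replicate 2. What the cells were sorted for is not stated, and the sort cannot be told apart from any handling that went with it.

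Serum vesicles and CHIR99021-vacuolated cells, both labelled with CHIR99021, differed in 7 subunits, 4 higher and 3 lower in vesicles (3 and 3 of the 9 subunits other than Itgb8), beside 58% of all genes (30.3% higher and 27.6% lower). The dose given to the serum vesicles is uncertain, so CHIR99021 is not known to be equal in these groups. The log2 rises were 2.52 for Itga3, 3.14 for Itgb4, 1.30 for Itgb6 and 1.86 for Itgb8 (adjusted p 2.58e-09, 2.03e-05, 0.000292 and 0.0337). Itgb8 entered the test through vesicle libraries alone, so its p is no support for a difference here. The falls were -2.25 for Itga2, -0.78 for Itga5 and -0.76 for Itga6 (adjusted p 2.33e-09, 0.00118 and 0.000243). The Itgb4 value was 2.49 without serum vesicle replicate 3. The Itgb8 value was 3.30 without CHIR99021-vacuolated replicate 1, and its call was lost without CHIR99021-vacuolated replicate 2 (adjusted p = 0.147) or 3 (0.128), without serum vesicle replicate 1 (0.0868) or 3 (0.0891), without the low-count filter (0.0749) and with passage as a covariate (0.0512). Itgb1, which rose in both groups against normal cells, did not differ detectably between them (0.03, interval -0.24 to 0.29).

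**Figure D5:**
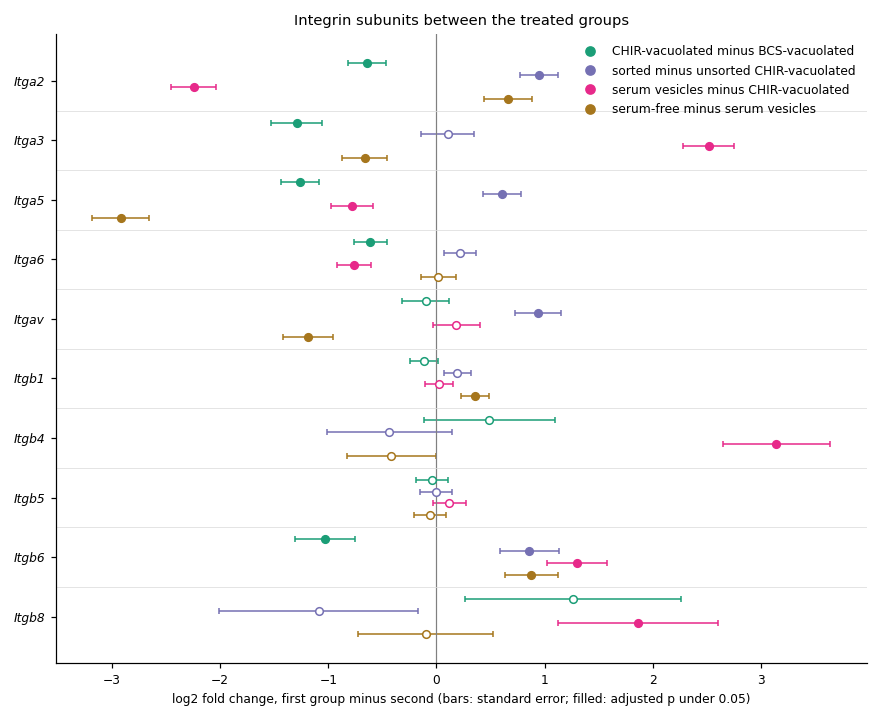
Log2 fold change (horizontal axis) of each integrin subunit (vertical axis) in the 4 comparisons between treated groups. Points are fitted values, bars are standard errors and filled points have an adjusted p under 0.05. The 5 called differences between CHIR99021- and BCS-vacuolated cells all lie to the left of 0, the 4 between sorted and unsorted cells all to the right, and Itga5 lies at -2.92 between the vesicles. Itgb8 was admitted to the test by vesicle libraries alone.

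Of 17 other integrin genes on a list made here, among them the integrin-like Itgbl1, 16 were in the files and 5 were tested. Itga4, an alpha chain that binds fibronectin and VCAM1, had 57, 70 and 115 counts in normal cells and 45, 116 and 48 in BCS-vacuolated cells, but 8, 6 and 8 in CHIR99021-vacuolated and 13, 18 and 27 in sorted cells. Serum vesicles held 2 counts and serum-free vesicles 0. It fell in sorted cells (log2 fold change -2.85 ± 0.37 SE, adjusted p = 6.01e-06) and did not pass in BCS-vacuolated cells (log2 fold change -0.62 ± 0.33 SE, adjusted p = 0.189). The fitted log2 fold change of CHIR99021-vacuolated cells was -3.64 ± 0.41 SE against normal cells (adjusted p = 3.31e-06) and -3.02 ± 0.42 SE against BCS-vacuolated cells (adjusted p = 3.6e-05). Itga4 exceeded the count filter in 8 libraries, all of normal, BCS-vacuolated or sorted cells. No CHIR99021-vacuolated library did, so the fitted p values of that group are not taken as support, and its counts above are the description. Normal cells had 126 times the level of serum vesicles (95% counting interval 34.5 to 1046), and no vesicle library of this gene exceeded the count filter. Itga4 was at least 103-fold lower in serum-free vesicles, with 3 counts for the whole group as the limit.

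Among the rest, Itga2b, the platelet fibrinogen receptor chain, had 3 counts in normal cells, 49 in serum vesicles and 31 in serum-free vesicles, ratios of 15.7 (5.06 to 78.7) and 8.12 (2.53 to 41.5). Like Itgb8 it passed the filter through 4 vesicle libraries and 0 libraries of cells, so its fitted test is not used. Itga7, a laminin-binding chain known from muscle, fell in serum vesicles (log2 fold change -1.33 ± 0.52 SE, adjusted p = 0.031) and in serum-free vesicles (log2 fold change -3.71 ± 0.66 SE, adjusted p = 3.4e-05), where it had 0, 1 and 4 counts. Itgae and Itgb7, chains known from lymphocytes, passed in none of the 9 comparisons. Itga8, too low to be tested, had 21 counts in serum-free vesicles, 0, 9 and 12 by library, 3 in BCS-vacuolated cells and 0 in each other group. Itgb3, the beta chain of the classical vitronectin receptor, had at most 3 counts in any library. Itgb2, a leukocyte chain, had 12 counts over all 18 libraries.

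The gene lists that follow are read against the share of all tested genes that passed against normal cells, which was 7.62% in CHIR99021-vacuolated, 20.7% in BCS-vacuolated and 25.9% in sorted cells, 60.4% in serum vesicles and 57.7% in serum-free vesicles. Shares near these are not particular to a list, and lists of this size give coarse shares. Laminins, type IV collagen and other basement membrane ligands had 14 tested genes of 22 listed. In BCS-vacuolated cells 8 rose and 0 fell (median log2 fold change 0.56), and in sorted cells 12 rose and 0 fell (0.97). In serum vesicles 3 rose and 4 fell (-0.06), and in serum-free vesicles 3 rose and 7 fell (-0.57). In CHIR99021-vacuolated cells 1 rose and 1 fell (0.30). The share called was 57.1% with BCS and 85.7% after sorting, beside 11.2% and 14.4% of all genes higher there, and 50% and 71.4% in serum and serum-free vesicles. Lama5, the alpha 5 laminin chain that alpha 3 and alpha 6 integrins recognise, rose from 11.5 ± 0.985 CPM in normal cells to 55.7 ± 19.1 in serum vesicles (log2 fold change 2.26 ± 0.29 SE, adjusted p = 2.06e-06) and 42.1 ± 11.5 in sorted cells (log2 fold change 1.87 ± 0.29 SE, adjusted p = 0.000113), and it also passed as higher in the other 3 treated groups. Lamb2, the beta 2 laminin chain, rose in serum vesicles (log2 fold change 1.59 ± 0.18 SE, adjusted p = 5.71e-08) and serum-free vesicles (log2 fold change 1.41 ± 0.18 SE, adjusted p = 4.29e-07) and, with less change, in BCS-vacuolated (1.11) and sorted cells (1.08). Lamb1, the beta 1 chain of early embryonic laminin, fell in them, from 1033 ± 85.6 CPM to 619.8 ± 14.4 (log2 fold change -0.74 ± 0.13 SE, adjusted p = 3.15e-05) and 651 ± 58.1 (log2 fold change -0.67 ± 0.13 SE, adjusted p = 0.000115), and rose in BCS-vacuolated (0.42) and sorted cells (0.55). Col4a2, a chain of type IV collagen, rose 2.38-fold in BCS-vacuolated cells (log2 fold change 1.25 ± 0.16 SE, adjusted p = 6.75e-06) and also rose in sorted cells (0.78).

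Interstitial and RGD-bearing ligands had 10 tested genes of 18. Of these, 3 rose in CHIR99021-vacuolated (median 0.38), 5 in BCS-vacuolated (1.05) and 7 in sorted cells (0.86), with 0 falling. Serum vesicles had 3 higher and 0 lower (0.40) and serum-free vesicles 3 higher and 3 lower (0.02). In all 30%, 50% and 70% passed in the CHIR99021, BCS and sorted groups, and 30% in serum vesicles and 60% in serum-free vesicles, where the share over all genes was 60.4% and 57.7%. Fn1, fibronectin itself, rose from 12.1 ± 2.77 to 35.7 ± 11.0 CPM in sorted cells (log2 fold change 1.56 ± 0.38 SE, adjusted p = 0.00697) and also rose in BCS-vacuolated cells (1.44). Ctgf, a matricellular protein, rose 6.51-fold in BCS-vacuolated cells (log2 fold change 2.70 ± 0.23 SE, adjusted p = 1.91e-07) and fell in serum-free vesicles (log2 fold change -1.43 ± 0.24 SE, adjusted p = 4.26e-05), and it also rose in CHIR99021-vacuolated (0.89) and sorted cells (1.51). Mfge8, a secreted RGD protein that binds alpha v integrins, rose in BCS-vacuolated cells (log2 fold change 1.96 ± 0.20 SE, adjusted p = 6.52e-07) and serum-free vesicles (log2 fold change 1.21 ± 0.20 SE, adjusted p = 2.55e-05), and by less in sorted cells (0.76) and serum vesicles (0.73).

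Inside the cell, the list of integrin activators and adhesion complex proteins had 31 tested genes of 34. In CHIR99021-vacuolated cells 3 rose and 3 fell (median 0.09), in BCS-vacuolated cells 10 and 3 (0.35) and in sorted cells 8 and 2 (0.29). In serum vesicles 14 rose and 4 fell (0.39), and in serum-free vesicles 10 and 6 (0.31). These are 58.1% and 51.6% of the list, under the 60.4% and 57.7% of all genes, while 41.9% passed with BCS beside 20.7% of all genes. Actn1, an alpha-actinin that ties integrins to actin, had 15.7 ± 0.727 CPM in normal cells and rose to 69.9 ± 16.4 with serum (log2 fold change 2.15 ± 0.19 SE, adjusted p = 1.12e-09) and 67.9 ± 4.87 without it in the vesicles (log2 fold change 2.11 ± 0.19 SE, adjusted p = 1.47e-09), and it also rose in BCS-vacuolated (1.29) and sorted cells (1.10). Parvb, beta-parvin, which joins the integrin-linked kinase complex to actin, fell in all 5 treated groups, most in serum-free vesicles, from 105 ± 6.86 to 12.6 ± 2.42 CPM (log2 fold change -3.03 ± 0.16 SE, adjusted p = 5.97e-14). The kinase gene Src rose in the 3 vacuolated groups, by 1.60-fold in CHIR99021-vacuolated, 2.24-fold in BCS-vacuolated and 1.94-fold in sorted cells (adjusted p 0.00158, 8.54e-07 and 9.92e-06), and also in serum-free vesicles (0.51 on the log2 scale).

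A list that joins genes of hemidesmosomes, where beta 4 acts, with other laminin receptor genes, such as those of the dystroglycan complex, had 8 tested genes of 9. Its counts are not split between these parts. Of these, 7 rose in serum vesicles (median 1.35) and 4 in serum-free vesicles (0.56), with 0 falling in either. The shares called, 87.5% and 50%, stand beside 60.4% and 57.7% of all genes. In vacuolated cells 1 rose with BCS (0.41) and 0 passed with CHIR99021, unsorted (-0.11) or sorted (0.16). Dst, a plakin whose epithelial form sits in hemidesmosomes, rose in serum vesicles (log2 fold change 1.41 ± 0.36 SE, adjusted p = 0.0034). Sgce, epsilon-sarcoglycan of the dystroglycan complex, went from 7.90 ± 0.776 CPM in normal cells to 109.9 ± 21.3 in serum vesicles (log2 fold change 3.80 ± 0.87 SE, adjusted p = 0.00224) and 81.2 ± 16.3 in serum-free vesicles (log2 fold change 3.37 ± 0.87 SE, adjusted p = 0.00505). Dag1, dystroglycan itself, rose in BCS-vacuolated cells (log2 fold change 0.59 ± 0.14 SE, adjusted p = 0.00414), serum-free vesicles (log2 fold change 0.58 ± 0.14 SE, adjusted p = 0.00106) and serum vesicles (0.66).

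Tetraspanins and other membrane partners of integrins had 9 tested genes of 10, of which 2 rose in BCS-vacuolated cells (median 0.13) and 0 passed in CHIR99021-vacuolated (-0.07) or sorted cells (0.08). In serum vesicles 4 rose and 2 fell (0.43), and in serum-free vesicles 6 rose and 0 fell (0.80). The share called was 66.7% in each, near the 60.4% and 57.7% of all genes. Tspan15, a tetraspanin that escorts the sheddase ADAM10, rose 4.18-fold with serum (log2 fold change 2.06 ± 0.24 SE, adjusted p = 5.73e-08) and 4.55-fold without (log2 fold change 2.19 ± 0.24 SE, adjusted p = 2.26e-08). Cd9, a tetraspanin bound to beta 1 integrins, fell in serum vesicles (log2 fold change -0.44 ± 0.13 SE, adjusted p = 0.00548).

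The genes of latent TGF-beta, which alpha v beta 6 and alpha v beta 8 release, had 6 tested members of 12. Medians were 0.11 in CHIR99021-vacuolated cells, where 0 passed, 0.21 in BCS-vacuolated and 0.41 in sorted cells, where 1 rose and 1 fell in each. In serum vesicles 2 rose and 1 fell (0.40), and in serum-free vesicles 1 rose and 0 fell (0.08). These shares, 50% and 16.7%, are under the 60.4% and 57.7% of all genes. Ltbp1, which tethers latent TGF-beta to the matrix, rose from 15.5 ± 2.02 CPM to 81.7 ± 19.5 in serum vesicles (log2 fold change 2.39 ± 0.24 SE, adjusted p = 3.84e-08) and 67.2 ± 20.0 in serum-free vesicles (log2 fold change 2.11 ± 0.24 SE, adjusted p = 2.57e-07). It also rose in BCS-vacuolated (1.37) and sorted cells (1.76), where neither Itgb6 nor Itgb8 passed.

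Genes for the uptake and recycling of integrins had 10 tested members of 12. Of these, 2 rose in CHIR99021-vacuolated (median 0.19), 2 in BCS-vacuolated (0.24) and 3 in sorted cells (0.16), with 0 falling. In serum vesicles 5 rose and 2 fell (0.35), and in serum-free vesicles 6 rose and 1 fell (0.81). The share called was 70% in each, beside 60.4% and 57.7% of all genes. Numb, an endocytic adaptor for integrins, rose in all 5 groups, from 10.0 ± 1.22 CPM to 22.1 ± 2.93 in CHIR99021-vacuolated cells (log2 fold change 1.15 ± 0.19 SE, adjusted p = 0.000217) and 38.2 ± 3.68 in serum vesicles (log2 fold change 1.94 ± 0.18 SE, adjusted p = 2.44e-09). Rab11a, of the slow recycling route, rose 3.35-fold in serum-free vesicles (log2 fold change 1.74 ± 0.14 SE, adjusted p = 8.79e-11) and 2.35-fold in serum vesicles. Arf6, a small GTPase of integrin recycling, rose in all 5 groups, by 0.83 with CHIR99021, 1.07 with BCS, 0.92 after sorting, 0.74 in serum vesicles and 1.10 in serum-free vesicles (log2 fold changes). Dab2 (log2 fold change -2.19 ± 0.50 SE, adjusted p = 0.00218) and Vps35 (-0.40, adjusted p = 0.0084) fell in serum vesicles. Rab11fip1 fell in serum-free vesicles (log2 fold change -1.16 ± 0.15 SE, adjusted p = 3.74e-07).

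The tested genes whose log2 CPM followed each subunit most closely over the 18 libraries are given as a description. For Itga2 the closest was Gata6, a master regulator of extraembryonic endoderm, with Pearson r = 0.979 over all libraries, 0.864 over the 12 libraries of cells and 0.686 over the 6 of vesicles. Gata6 had 75.6 to 82.7 CPM in normal, 46.3 to 51.1 in CHIR99021-vacuolated, 80.3 to 90.6 in BCS-vacuolated and 89.2 to 106 in sorted cells, and 10.8 to 18.9 in vesicles. The order of the groups differs, since Gata6 was highest in sorted cells and the mean of Itga2 in normal cells. For Itga5 it was Flnc, filamin C, an actin crosslinker (r = 0.972, 0.875 in cells and 0.955 in vesicles), followed by Eda2r (0.966). Itga3 was closest to Crebrf (0.953), Itga6 to Hdac7 (0.951), Itgav to Mark4 (0.931) and Itgb1 to Pcgf5 (0.900). Itgb4 was closest to Zfp703 (0.943), Itgb6 to As3mt (0.908) and Itgb8 to Ina (0.943), where r within the cells dropped to 0.647, 0.770 and 0.760. The best value for Itgb5, which barely varied, was 0.827 with Zfp418. These points share libraries, depth and the gap between cells and vesicles, and each gene was picked for its high r among the tested genes. The 10 subunits and placeholder symbols, such as those starting with LOC or RGD, were left out of that search.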

How the data were processed

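RNA of 18 libraries (total RNA depleted of ribosomal RNA, directional kit, paired reads) was measured. The files deposited by the authors give, for each library, 1 column of unstranded gene counts and 1 for either strand. Per the submitters' processing notes the tools were bcl2fastq, Trimmomatic 0.38 and STAR 2.6.1 with the rn6 build. The counting step and annotation are not given in the sources used here. Column 4, the strand with nearly all counts, was used (opposite strand 1.70 to 2.85%).

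Counts were fitted in R 4.3.3 with edgeR 4.0.16 (default filter by group, minimum count 10, TMM scaling, robust quasi-likelihood, 1 mean per group over all 18 libraries, 12 residual degrees of freedom, common biological coefficient of variation 16.1%), with limma 3.58.1 and DESeq2 1.42.0 as support. The 9 comparisons used Benjamini-Hochberg adjustment over 11503 genes and a threshold of 0.05. A group at 0 counts was set to a limit of 3 counts, and groups of 1 to 3 counts got a ratio with an exact 95% interval. Both cover counting error only. Correlations used log2 CPM (prior count 2). The members and lists were chosen with earlier results of these data known. Besides the subunits, the text names from each list at most 2 genes per direction and comparison with normal cells, those that passed with the largest changes, libraries that do not overlap and an average log2 CPM of 3 or more, and at most the 2 closest genes per subunit. Alternatives were other scalings, DESeq2, no filter, unstranded counts, passage as covariate, a replicate block, library sizes without the 2 most abundant genes, the 2 groups alone and leaving out each library. The code was tested on simulated data of 11503 genes for serum-free vesicles against normal cells. Only a small set of genes well counted in normal cells was changed, whereas 57.7% of genes passed in the real comparison. It called 28% of genes changed 1.5-fold, 86% at 2-fold and 100% at 4-fold. These rates do not cover Itgb4 and Itgb8, which had few counts in normal cells.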

Additional observations from a re-analysis of the deposited data

Results flagged for a closer look

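The 2 unsorted vacuolated groups differed in 5 integrin subunits by the direct test between them, where 13.2% of all genes passed. The Itga2 and Itgb6 calls were lost on leaving out some single libraries, as given above. The log2 difference, CHIR99021-vacuolated minus BCS-vacuolated, was -0.645 for Itga2 (adjusted p = 0.015 by edgeR), -1.29 for Itga3 (0.000637), -1.27 for Itga5 (2.75e-05), -0.611 for Itga6 (0.00888) and -1.03 for Itgb6 (0.0134). Against normal cells Itga3 stood at -0.17 with CHIR99021 and 1.12 with BCS, and Itga5 at 0.35 and 1.61.

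The vesicles with and without serum differed in 6 subunits by the same kind of test, where 24.4% of all genes passed. The Itga2, Itga3 and Itgb1 calls were lost on leaving out some single libraries and with the 2 groups alone, as given above. The Itgb1 call was also lost under upper-quartile scaling, passage as a covariate and a replicate block. The log2 difference, serum-free minus serum, was 0.661 for Itga2 (adjusted p = 0.0321 by edgeR), -0.663 for Itga3 (0.023), -2.92 for Itga5 (9.73e-08), -1.19 for Itgav (0.000742), 0.354 for Itgb1 (0.0447) and 0.877 for Itgb6 (0.011). Against normal cells Itga5 stood at -3.36 without serum and -0.43 with it, and Itgav at -0.49 and 0.70.

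A signal in a column that the comparisons do not use was the 23307 counts on the strand opposite to Itgb4, against 721 on its own strand.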

How the results depend on the processing

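Of 48 subunit calls over the 9 comparisons (90 tests), 36 held under every alternative run and 12 were lost under at least 1, 7 of them only on leaving out a library. The calls of Itgb8 as higher in vesicles are counted among the 48, although its p is no support there. No called value changed sign. Of the 42 uncalled tests, 5 passed under at least 1 alternative. With 1 library left out, the number of subunits called ran from 1 to 2 for CHIR99021-vacuolated against normal cells (2 with all libraries), from 2 to 3 for sorted against unsorted (4 with all libraries) and from 3 to 5 for serum-free against serum vesicles (6 with all libraries). Likewise the number of genes called ran from 504 to 638 for CHIR99021-vacuolated against normal cells (876 with all libraries), from 1275 to 2606 for BCS-vacuolated against normal (2383 with all libraries), from 1982 to 2471 for sorted against normal (2974 with all libraries), from 690 to 954 for sorted against unsorted (1350 with all libraries), from 748 to 1947 for CHIR99021 against BCS (1522 with all libraries) and from 1725 to 3004 for serum-free against serum vesicles (2806 with all libraries). Fitted on the 2 groups alone, 1856 genes passed for CHIR99021-vacuolated against normal cells, 3 subunits passed for serum-free against serum vesicles, 1223 genes passed for serum-free against serum vesicles and 2576 genes passed for sorted against unsorted. All sign changes were of uncalled subunits, and their cause was not tested. With 1 library left out, their log2 fold changes ranged as follows. Itga2 gave -0.12 to 0.0611 for sorted against normal. Itga3 gave -0.32 to 0.0848 for CHIR99021-vacuolated against normal cells, -0.215 to 0.0934 for sorted against normal and -0.152 to 0.253 for sorted against unsorted. Itga6 gave -0.152 to 0.197 for serum-free against serum vesicles. Itgav gave -0.208 to 0.0641 for CHIR99021 against BCS and -0.145 to 0.363 for serum vesicles against CHIR99021-vacuolated. Itgb1 gave -0.128 to 0.135 for serum vesicles against CHIR99021-vacuolated. Itgb4 gave -0.752 to 0.228 for serum-free against serum vesicles. Itgb5 gave -0.105 to 0.093 for CHIR99021-vacuolated against normal cells, -0.108 to 0.147 for BCS-vacuolated against normal, -0.112 to 0.0797 for sorted against normal, -0.0914 to 0.233 for serum vesicles against normal, -0.046 to 0.151 for serum-free vesicles against normal, -0.0519 to 0.0405 for sorted against unsorted, -0.112 to 0.106 for CHIR99021 against BCS, -0.0891 to 0.234 for serum vesicles against CHIR99021-vacuolated and -0.175 to 0.151 for serum-free against serum vesicles. Itgb6 gave -0.0269 to 0.647 for BCS-vacuolated against normal. Itgb8 gave -1.59 to 0.352 for sorted against unsorted, -0.177 to 2.33 for CHIR99021 against BCS and -0.338 to 0.162 for serum-free against serum vesicles. With upper-quartile scaling, Itga6 stood at -0.0311 for serum-free against serum vesicles. Without the low-count filter, Itgb1 stood at -0.00472 for serum vesicles against CHIR99021-vacuolated and Itgb5 stood at 0.00925 for sorted against normal and 0.01005 for sorted against unsorted. With unstranded counts, Itgb4 stood at -0.434 for BCS-vacuolated against normal and -0.0479 for sorted against normal. With passage as a covariate, Itgb5 stood at 0.00536 for CHIR99021-vacuolated against normal cells, -0.0222 for BCS-vacuolated against normal, -0.0154 for serum-free vesicles against normal and 0.0275 for CHIR99021 against BCS. Without the 2 most abundant genes, Itgb5 stood at 0.00212 for CHIR99021-vacuolated against normal cells. With the 2 groups alone, Itga6 stood at -0.0262 for serum-free against serum vesicles and Itgb5 stood at 0.0113 for CHIR99021-vacuolated against normal cells and 0.000616 for sorted against normal. Groups share replicate numbers, and 0 of 27 same-numbered pairs of libraries correlated above 0.1 in their deviations. With 3 libraries per group this cannot tell whether the numbers pair the samples. Passages of replicates 1, 2 and 3 were 37, 40 and 51 in normal and 37, 41 and 51 in CHIR99021-vacuolated cells. They were 35, 38 and 49 in sorted and 41, 32 and 42 in BCS-vacuolated cells. Vesicles had 32, 35 and 49 with serum and 32, 35 and 42 without. With the replicate number as a block, Itgb5 stood at 0.0111 for CHIR99021-vacuolated against normal cells. With the block 2 calls missed the threshold, Itga6 in sorted cells (adjusted p = 0.056 by edgeR) and Itgb1 between the vesicles (0.0617), and no other. Upper-quartile scaling moved the median log2 fold change of all genes to 0.113 in serum vesicles against normal cells. Depth limits Itgb4 and Itgb8, with 10 and 1 counts in normal cells, more than the other 8 subunits.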
